A study of Mus musculus with 16 samples.

Results

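The NF-kB system of bone marrow-derived macrophages was followed through 10 genes, taken by their symbols from the 54532 gene identifiers of the count files. They are the 5 subunit genes (Rela, Rel, Relb, Nfkb1 and Nfkb2), the inhibitor gene Nfkbia, the atypical nuclear family members Nfkbiz and Bcl3, the feedback enzyme gene Tnfaip3 and the cytokine gene Tnf. All 10 were found, each under 1 identifier, and all 10 passed the filter on low counts in every fit, with 376 to 3137 counts per library. Mouse marrow was cultured in M-CSF, which drives macrophage growth, at 20 ng/mL over 7 days, and the cells were then kept for 24 h without or with 70% of medium from cultured YUMM1.7 mouse melanoma cells (tumor-conditioned medium, TCM). The 16 libraries form 5 groups. WT naive (n = 3) was wild type without TCM, WT TCM (n = 3) was wild type with it, and TRAP1 KO TCM (n = 4) lacked the mitochondrial chaperone gene Trap1 and received it. JMJD3 WT TCM (n = 3) and JMJD3 cKO TCM (n = 3) were the wild type and the conditional knockout of the line named after JMJD3, the H3K27 demethylase encoded by Kdm6b, and both received TCM. A naive group of either knockout or of the JMJD3 line was not analysed here. What drives Cre, which exons the conditional allele loses and how old the mice were is not given in the sources used. Since no label says that replicates are separate animals or cultures, the p-values rest on library-to-library spread alone, and that spread may be technical.

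As background, NF-kB proteins are dimers that wait in the cytoplasm. In the canonical branch, dimers of RelA or c-Rel with the processed Nfkb1 product are held by IkB-alpha, the product of Nfkbia, until the IkB kinase complex marks the inhibitor for destruction. In the noncanonical branch, receptors such as CD40 and the lymphotoxin beta receptor lead to processing of the Nfkb2 product, the partner of RelB. Nfkbia, Tnfaip3, Nfkb2, Relb, Bcl3, Nfkbiz and Tnf are well known targets of the dimers themselves, so the system is rich in feedback. In macrophages it drives the inflammatory response to microbial products and to TNF.

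On the GRCm38 assembly, GENCODE M21 places Rela at chr19:5637483-5648130 (plus strand), Rel at chr11:23736847-23770970 (minus strand) and Relb at chr7:19606217-19629438 (minus strand). Nfkb1 lies at chr3:135584655-135691547 (minus strand) and Nfkb2 at chr19:46304320-46312385 (plus strand). The regulators Nfkbia, Nfkbiz, Bcl3 and Tnfaip3 lie at chr12:55489410-55492647 (minus strand), chr16:55811375-55838899 (minus strand), chr7:19808462-19822770 (minus strand) and chr10:19000910-19015657 (minus strand), and Tnf at chr17:35199381-35202007 (minus strand). All are protein-coding, and counts are summed over each whole gene.

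Of the 10 genes, 7 had a promoter entry in the RefSeq table (GRCm38.p6), with 10 start sites in all. Nfkb1, Relb and Nfkbiz had none. The 250 bases before each start were searched on both strands for the kB consensus of NF-kB dimers, 10 bases long, and for TATAAA, counting overlapping matches. The consensus lay in the window of 4 of the 7 genes (Nfkb2, Rel, Nfkbia and Tnfaip3), at 6 of the 10 starts, and in 7.25% of the 32851 windows of the whole table. All 3 starts of Nfkb2 are among the 6, and start 2 but not start 1 of Tnfaip3. Annotated exons of the gene cover 250 and 234 bases of the windows at Nfkb2 starts 1 and 3, and 110 at Tnfaip3 start 2. At Rel, 2 matches overlapped between 92 and 82 bases before the start, the first of them read on both strands. At Nfkbia, 1 match lay on the strand opposite to the gene, 29 to 20 bases before it. Tnf and Bcl3 had no consensus match in this window, and Tnf had TATAAA, found in 12.4% of all windows. The 4 stretches below are shown as examples: Nfkbia and Rel hold the consensus, Tnf and Bcl3 do not, and all 4 genes are described in each comparison. They stop where the annotated first exon begins. Capitals mark the consensus in Nfkbia and Rel and TATAAA in Tnf. A match is a run of letters and says nothing about binding in these cells.
Nfkbia (chr12:55492648-55492897, minus strand): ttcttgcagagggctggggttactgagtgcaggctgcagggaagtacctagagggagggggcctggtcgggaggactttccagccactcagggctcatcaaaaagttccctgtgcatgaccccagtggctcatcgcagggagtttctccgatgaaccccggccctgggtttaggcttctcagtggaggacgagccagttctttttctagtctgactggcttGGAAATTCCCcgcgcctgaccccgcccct
Rel (chr11:23770971-23771219, minus strand): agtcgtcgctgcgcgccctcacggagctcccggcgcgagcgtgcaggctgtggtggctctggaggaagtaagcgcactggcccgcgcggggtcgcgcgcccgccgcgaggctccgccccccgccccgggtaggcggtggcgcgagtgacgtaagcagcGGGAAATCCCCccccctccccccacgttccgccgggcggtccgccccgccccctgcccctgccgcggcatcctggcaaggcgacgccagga
Tnf (chr17:35202008-35202257, minus strand): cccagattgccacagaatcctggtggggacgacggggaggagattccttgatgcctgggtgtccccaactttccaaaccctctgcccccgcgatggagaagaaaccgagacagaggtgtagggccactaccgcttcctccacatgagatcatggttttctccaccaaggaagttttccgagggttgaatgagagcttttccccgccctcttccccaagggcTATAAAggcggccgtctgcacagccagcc
Bcl3 (chr7:19822771-19823005, minus strand): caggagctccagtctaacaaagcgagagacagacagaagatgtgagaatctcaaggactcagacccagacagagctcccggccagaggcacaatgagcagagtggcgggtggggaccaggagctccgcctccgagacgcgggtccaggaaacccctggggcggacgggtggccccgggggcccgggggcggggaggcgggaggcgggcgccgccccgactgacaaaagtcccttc

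Library totals ran from 15361604 to 22426820 counts. Trap1 was at 67.7 ± 5.52 CPM (counts scaled to a common library size with TMM factors, mean ± SD) in WT TCM and 0.0377 ± 0.0253 in TRAP1 KO TCM. Kdm6b was not lower in the libraries labelled JMJD3 cKO (25.6 ± 1.02 CPM) than in JMJD3 WT TCM (25.1 ± 1.69). Counts are not split by exon, so a deletion that removes only some exons could not be checked. The defining macrophage markers were abundant in every library, with 8 genes summing to 13179 to 26565 CPM, Adgre1 at 1933 CPM or more and Csf1r at 1166 or more. Markers of T and NK cells, mast cells and melanoma cells summed to at most 1.16, 0.991 and 0.482 CPM, and Tyr was at 0 counts in all 5 groups. B cell markers summed to 2.54 to 8.03 CPM, with Cd79b at 2.16 to 6.18. The JMJD3 line had Xist at 840 to 936 CPM and 0 counts of Ddx3y, while the other groups had at most 1 count of Xist per group and Ddx3y at 83.9 to 91.7 CPM. Sex and line therefore cannot be told apart, and each knockout is compared with its own wild type.

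Per kilobase of merged exons, the scale used here to set one gene's level against another's, Nfkbia led in WT naive at 45.1 ± 0.161 CPM per kb. Rela followed at 32.6 ± 0.581, Tnf at 27.5 ± 1.28 and Nfkb2 at 19.5 ± 0.0879, and the libraries of these 4 genes did not overlap. Nfkb1, Relb, Bcl3, Nfkbiz and Tnfaip3 came next within 8.7 to 9.5 CPM per kb, and each overlapped its neighbour in the order. Rel was lowest, at 6.81 ± 0.465. The order of the 4 highest was the same in WT TCM and in TRAP1 KO TCM, although Rela (39.4 ± 0.909) and Tnf (38.0 ± 1.76) overlapped in the latter. In both groups of the JMJD3 line Rela led, with Nfkbia next and Bcl3 in the place of Tnf. Merged exons take in every annotated transcript (12061 bp for Nfkb1 and 1610 bp for Nfkbia), so a gene with long rare transcripts appears lower on this scale.

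**Figure D1:**
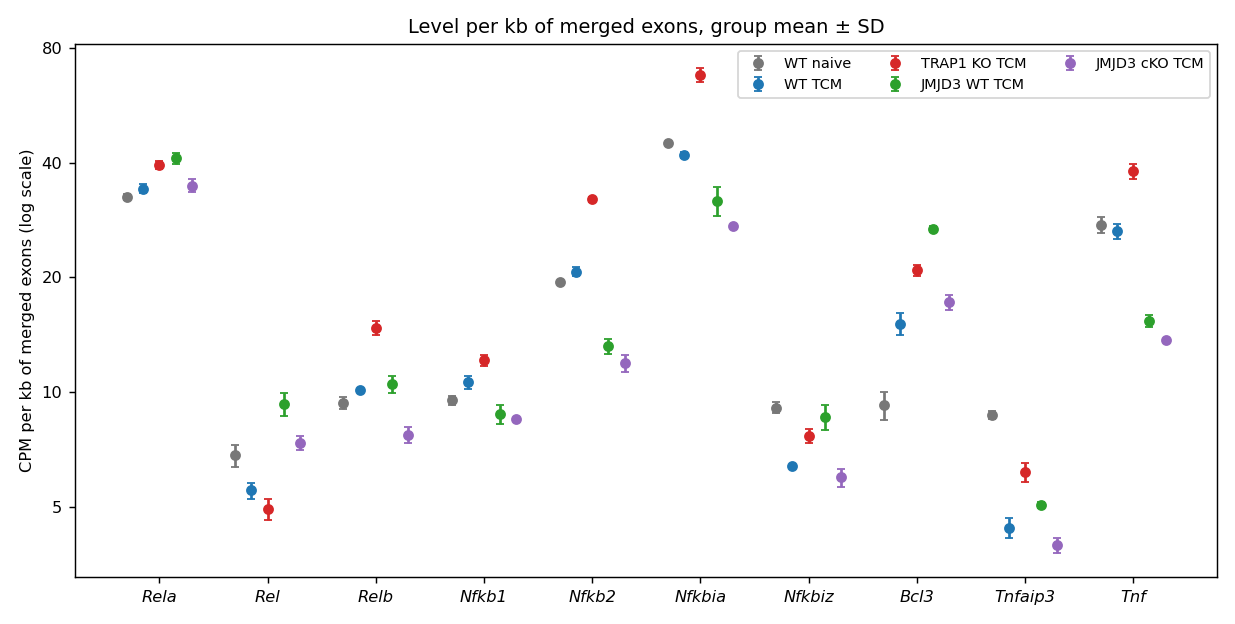
Level of each gene in CPM per kb of merged exons (log axis), as group mean ± SD over 3 or 4 libraries. Nfkbia, Rela, Tnf and Nfkb2 sit above the others in WT naive, and Nfkbia reaches 68.1 in TRAP1 KO TCM.

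Setting WT TCM against WT naive asks what melanoma medium does to these genes. The clearest changes were opposite in sign within the regulators. Tnfaip3, which encodes a ubiquitin-editing enzyme that shuts signalling down, fell 1.97-fold, and Bcl3, a nuclear partner of the Nfkb1 and Nfkb2 products, rose 1.65-fold. Nfkbiz and Rel fell, and Tnf did not differ detectably. By edgeR, 3 of the 10 genes were called higher, where 21.6% of the 14078 genes tested were, and 4 were called lower, where 20.6% were (42.2% in either direction). Groups did not overlap for 9 of 10, against 50.1% of all genes. The median log2 fold change of the 10 was 0.01, beside -0.01 over all genes tested.

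The 3 naive libraries had 64.6, 61.7 and 62.4 CPM of Tnfaip3, and the 3 with TCM had 32.9, 32.8 and 29.6. Every TCM library was far below every naive one (log2 fold change -0.98 with SE 0.05, adjusted p = 8.4e-32). For Bcl3 the naive libraries had 23.9, 20.6 and 24.0 CPM and the TCM libraries 38.6, 39.1 and 34.7. All 3 TCM libraries were above all naive ones (0.72, SE 0.06, adjusted p = 7e-19). Nfkbiz, whose nuclear product switches on a second set of inflammatory genes, was at 44.7, 47.4 and 44.9 CPM without TCM and at 32.1, 32.3 and 31.9 with it. The TCM libraries lay close together and below the naive ones (-0.51, SE 0.05, adjusted p = 3.5e-14).

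Among the subunits, Rel, which encodes c-Rel, had 54.4, 50.6 and 47.5 CPM in WT naive and 39.5, 43.3 and 40.7 in WT TCM, a fall with no overlap (log2 fold change -0.31, SE 0.05, adjusted p = 5.3e-07). Nfkb1 rose from 115 ± 3.17 to 128 ± 5.36 CPM (0.16, SE 0.03, adjusted p = 2.3e-05). Nfkb2 differed by 0.09 (adjusted p = 0.0278) and Nfkbia by -0.10 (adjusted p = 0.0195). Both of these small calls were lost when 1 of several libraries was left out: Nfkb2 without WT naive replicate 1 or 2 or WT TCM replicate 2 (adjusted p 0.0584 to 0.16), and Nfkbia without WT naive replicate 1 or WT TCM replicate 2 (adjusted p 0.0523 and 0.103). The call on Nfkb2 was also lost with library totals in place of TMM. Rela (0.07, 95% interval 0.01 to 0.14, adjusted p = 0.0717) and Relb (0.12, 0.01 to 0.22, adjusted p = 0.0578) missed the threshold and were called under DESeq2 size factors, at 0.08 and 0.12, and when 1 library was left out (Rela without WT TCM replicate 1, Relb without WT naive replicate 3).

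Tnf was at 43.7, 47.5 and 43.9 CPM in WT naive and 44.5, 44.4 and 41.0 in WT TCM, and the groups overlapped (log2 fold change -0.06, 95% interval -0.15 to 0.04, adjusted p = 0.376). Cell type markers moved with the medium. The 8 macrophage markers summed to 16159 to 16365 CPM in WT naive and 26101 to 26565 in WT TCM. Lyz2 was higher (7922 to 8047 and 17804 to 18191) and Adgre1 lower (3114 to 3141 and 2827 to 2840). The 6 osteoclast markers summed to 100 to 103 and 84.1 to 89.5 CPM. Acp5 was lower (66.9 to 73.1 and 18.3 to 19) and Mmp9 higher (22.2 to 26.1 and 59 to 63.9). The 8 neutrophil and precursor markers summed to 50.1 to 54.1 CPM in WT naive and 4.09 to 5.46 in WT TCM. Mpo went from 0.874 to 1.08 CPM to 0 counts. Ly6g, at 0 counts in WT TCM, was at most 0.0471 CPM in WT naive as well. The 7 markers of fibroblasts and stromal cells summed to 14.2 to 15.4 and 0.166 to 0.454 CPM, with Col3a1, Pdgfra and Dcn at 0 counts in WT TCM. Pdgfra was at most 0.184 CPM in WT naive. The mitochondrial share of counts was at most 1.18% in WT naive and 1.25% to 1.28% in WT TCM. The part of these shifts in the changes of the 10 genes was not tested. In bulk RNA, fewer cells of a type and less RNA per cell cannot be told apart.

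**Figure D2:**
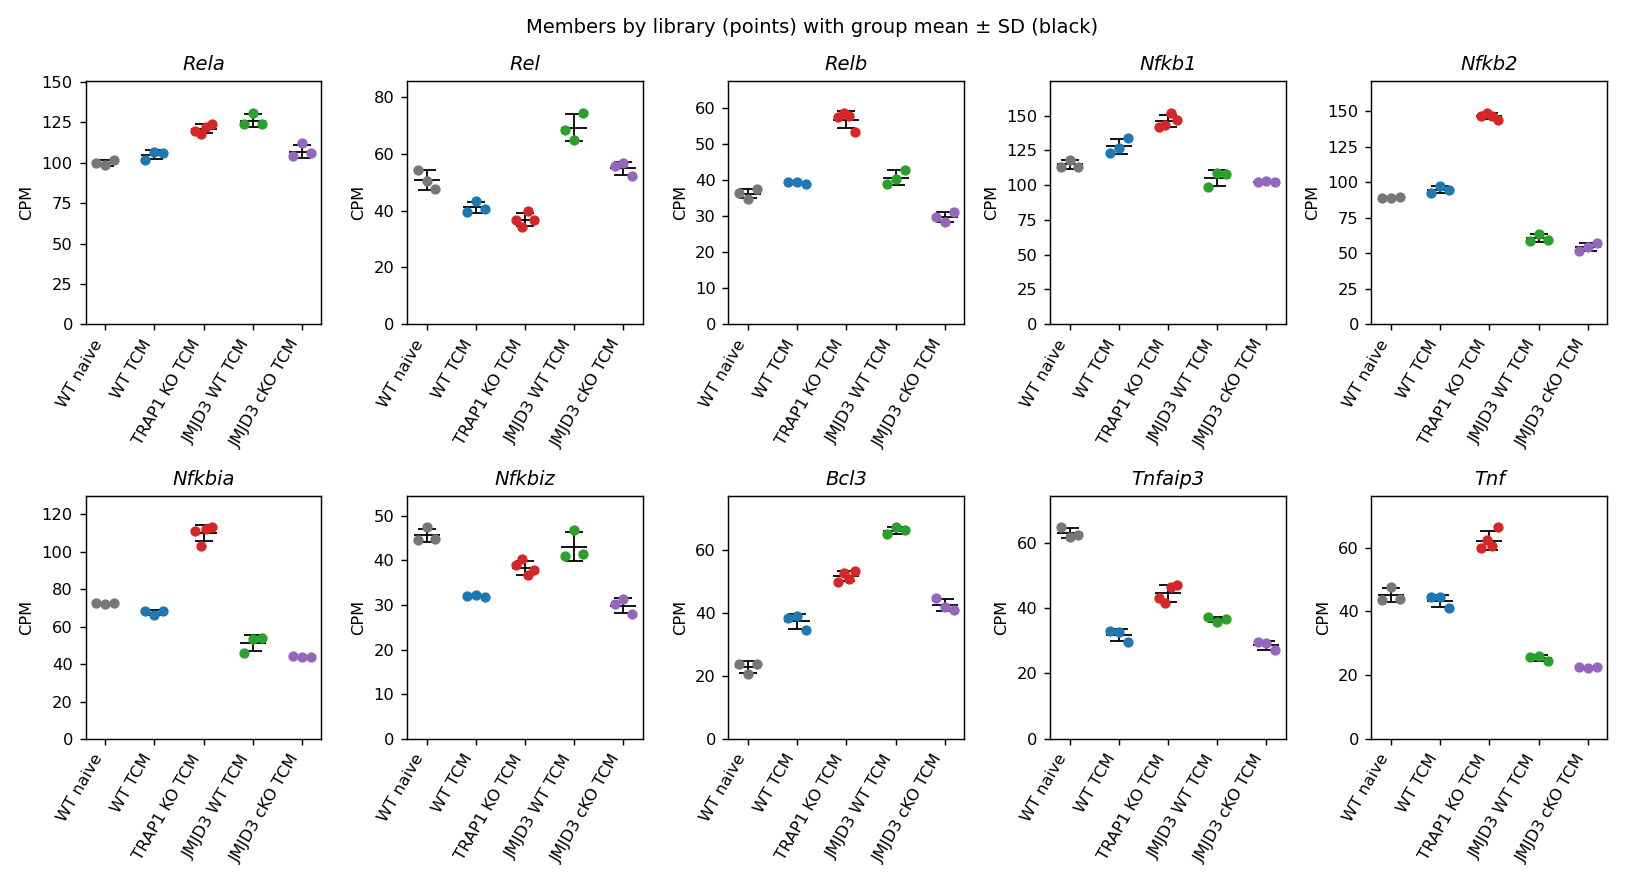
CPM of each of the 10 genes in each of the 16 libraries (coloured points, by group) with the group mean ± SD in black, on axes that start at 0. The 4 TRAP1 KO TCM libraries lie above all 3 WT TCM libraries for 9 genes and overlap them for Rel.

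The effect of the missing chaperone under melanoma medium was read from TRAP1 KO TCM against WT TCM. Of the 10 genes 9 rose, and 1, Rel, was called lower. The largest rises were those of Nfkbia (1.63-fold), Nfkb2 (1.56-fold), Relb (1.46-fold) and Tnf (1.44-fold), all moderate in size. Over all 14078 genes, 21.2% were called higher and 21% lower, 42.2% in all. Groups did not overlap for 9 of the 10, against 43% of all genes. The median log2 fold change was 0.48 for the 10 and 0.01 for all genes tested. WT TCM is the control here and the treated group in the comparison above, so the same 3 libraries enter both.

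Nfkbia stood at 68.2, 66.0 and 68.4 CPM in WT TCM and at 111, 103, 112 and 113 in TRAP1 KO TCM. All 4 knockout libraries were far above the wild type (log2 fold change 0.71, SE 0.03, adjusted p = 6.7e-33), and above the naive libraries, at 72.3 to 72.9. The other feedback genes rose too. Tnfaip3 went from 32.9, 32.8 and 29.6 to 43.1, 41.6, 46.3 and 47.1 CPM (0.49, SE 0.05, adjusted p = 1.8e-14), which left every knockout library below every naive one. Bcl3 went from 38.6, 39.1 and 34.7 to 50.0, 52.7, 50.8 and 53.6 CPM (0.47, SE 0.05, adjusted p = 2.2e-13). The rise of Nfkbiz was smaller, from 32.1 ± 0.192 to 38.4 ± 1.57 CPM (0.27, SE 0.05, adjusted p = 7.8e-06).

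The 2 noncanonical subunit genes rose more than the canonical ones in estimate. Nfkb2 was at 92.7, 97.5 and 94.5 CPM in WT TCM and at 147, 149, 147 and 144 in TRAP1 KO TCM (0.64 in log2, 95% interval 0.58 to 0.70, adjusted p = 3.7e-34). The groups were wide apart. Its exons overlap those of Psd on the other strand, which went from 7.75 ± 0.522 to 16.9 ± 1.23 CPM, and how reads in the overlap were assigned is not known. Relb was at 39.5, 39.5 and 38.9 CPM against 57.7, 58.8, 57.8 and 53.4 (0.54, 95% interval 0.45 to 0.63, adjusted p = 2e-18). Rela rose from 105 ± 2.70 to 121 ± 2.79 CPM (0.21, 95% interval 0.15 to 0.27, adjusted p = 7e-09), and Nfkb1 from 128 ± 5.36 to 146 ± 4.49 (0.20, 0.14 to 0.26, adjusted p = 2.2e-08). The intervals of Nfkb2 and Relb do not reach those of Rela and Nfkb1, and the differences between genes were not tested. Rel was at 39.5, 43.3 and 40.7 CPM in WT TCM and 36.6, 34.2, 39.8 and 36.6 in the knockout, and these groups overlapped (-0.15, SE 0.05, adjusted p = 0.0115). The call on Rel was lost without WT TCM replicate 2 (-0.12, adjusted p = 0.117) or without TRAP1 KO TCM replicate 2 (-0.12, adjusted p = 0.0793).

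Tnf rose in all 4 knockout libraries, from 44.5, 44.4 and 41.0 CPM to 60, 62.3, 60.4 and 66.3 (log2 fold change 0.53, SE 0.04, adjusted p = 1.7e-18). The knockout also exceeded the naive libraries, at 43.7 to 47.5 CPM. Its genomic neighbours Lta and Ltb, the lymphotoxin genes, lay between 0.0314 and 0.433 CPM in the 5 group means and were not tested. The 7 fibroblast and stromal markers summed to 4.98 to 7.01 CPM in the knockout against 0.166 to 0.454 in WT TCM, and the 6 osteoclast markers, some of which macrophages also express, to 178 to 196 against 84.1 to 89.5. Most of the osteoclast sum and its rise was Mmp9 (153 to 169 against 59 to 63.9 CPM). Acp5 was slightly higher (21.3 to 22.9 against 18.3 to 19). Ctsk overlapped between the groups (2.53 to 3.71 against 3.68 to 4.52), and Dcstamp was lower without overlap (1.09 to 1.66 against 2.47 to 2.57). The sum of the neutrophil markers did not separate the groups (3.51 to 4.98 and 4.09 to 5.46 CPM), but single markers did. Ngp was lower in the knockout (0.054 to 0.38 against 0.697 to 1.36 CPM) and S100a8 higher (1.69 to 2.36 against 1.01 to 1.49). The mitochondrial share of counts was 1.42% to 1.45% in the knockout and 1.25% to 1.28% in WT TCM. The part of these shifts in the 9 rises was not tested.

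**Figure D3:**
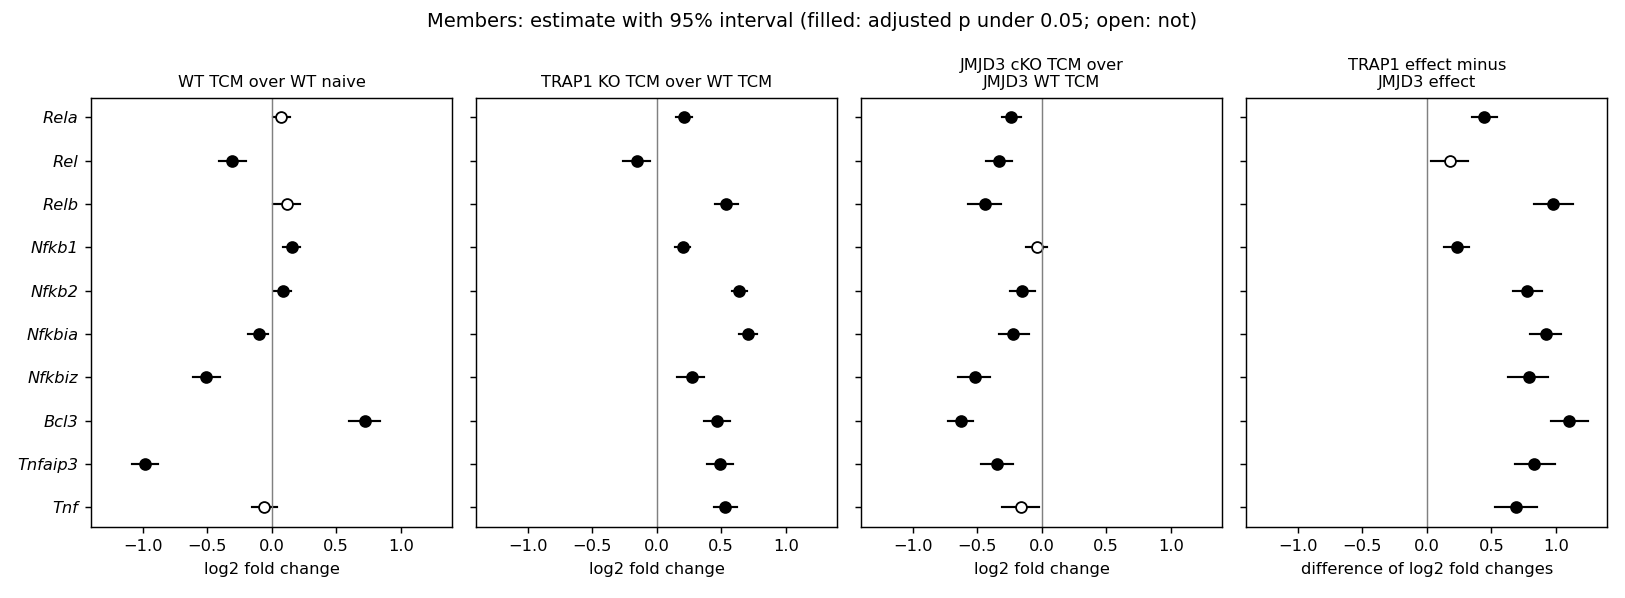
Estimates (points) and 95% intervals (lines) of the log2 fold change of each gene in 3 comparisons, and of the difference between the genotype effects in the last panel. Filled points passed an adjusted p of 0.05; 9 genes lie right of 0 for TRAP1 and 8 filled points lie left of it for JMJD3.

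For the demethylase under melanoma medium, JMJD3 cKO TCM was set against JMJD3 WT TCM. In the libraries labelled JMJD3 cKO, 8 of the 10 genes fell and 0 rose, where 17.8% of the 13476 genes tested were called lower and 17.3% higher (35.1% in either direction). The deepest falls were those of Bcl3 (1.55-fold), Nfkbiz (1.44-fold) and Relb (1.36-fold). Groups did not overlap for 9 of the 10 (44.9% of all genes), and the median log2 fold change was -0.28, beside 0.01 over all genes. Library totals in place of TMM shifted the median over all genes by 0.081, and 71.5% of calls over all genes were higher in place of 49.2% (3932 higher and 1571 lower, against 2326 and 2402). Under that scaling 7 of the 10 genes were still lower and 0 higher.

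Bcl3 was at 65.1, 67.3 and 66.5 CPM in JMJD3 WT TCM and at 44.9, 41.9 and 41.0 in JMJD3 cKO TCM, with a wide gap between the groups (log2 fold change -0.63, SE 0.05, adjusted p = 4.8e-14). Nfkbiz fell from 40.9, 46.9 and 41.4 CPM to 30.2, 31.3 and 28.1 (-0.52, SE 0.06, adjusted p = 5e-09). Tnfaip3 fell from 37.2, 35.7 and 36.6 CPM to 29.5, 29.3 and 27.2 (-0.35, SE 0.06, adjusted p = 1.5e-05). In each of these 3 genes every library labelled cKO was below every control. Nfkbia, the main inhibitor, was at 46.1, 53.5 and 54.1 CPM and 44.2, 43.6 and 43.8, with replicate 1 of the controls close to the cKO libraries (-0.22, SE 0.06, adjusted p = 0.002).

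Among the subunits Relb fell from 38.9, 40.5 and 43.0 CPM to 29.9, 28.5 and 31.3 (log2 fold change -0.44, SE 0.06, adjusted p = 1.3e-07). Rel fell from 68.4, 64.9 and 74.5 CPM to 55.7, 56.8 and 52.3 (-0.33, SE 0.05, adjusted p = 6.7e-07), and Rela from 126 ± 3.94 to 107 ± 4.14 (-0.24, SE 0.04, adjusted p = 3.5e-06). Nfkb2 was called lower by a small margin (60.5 ± 2.77 to 54.3 ± 2.88 CPM, -0.15, adjusted p = 0.0199). That call was lost with DESeq2 (adjusted p = 0.0574), with library totals (-0.07, adjusted p = 0.314), with no filter (adjusted p = 0.0684), and without JMJD3 WT TCM replicate 2 or JMJD3 cKO TCM replicate 1 or 2 (adjusted p 0.0517 to 0.14). Nfkb1 did not differ detectably (105 ± 5.91 and 102 ± 0.515 CPM, -0.04, 95% interval -0.12 to 0.04, adjusted p = 0.525), and its estimate was 0.04 with library totals.

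Tnf was at 25.6, 26.1 and 24.3 CPM in the controls and 22.6, 22.3 and 22.6 in the libraries labelled cKO, close together and without overlap, and missed the threshold (log2 fold change -0.16, 95% interval -0.31 to -0.02, adjusted p = 0.0709). It was called in the fit of all 16 libraries (-0.17, adjusted p = 0.0322). Over the 12 alternatives its estimate ran from -0.20 to -0.08, and the adjusted p from 0.0322 to 0.381. Of the other cell types, the 6 dendritic cell markers summed to 8.46 to 10.7 CPM in the controls and 4.49 to 5.55 in the cKO libraries, and the 8 neutrophil markers to 21.1 to 25.0 and 38.9 to 40.6. Among the dendritic cell markers only Xcr1 separated the groups (6.79 to 9.2 and 2.56 to 3.54 CPM), and the others overlapped. The 8 macrophage markers summed to 16510 to 16955 and 13179 to 13551 CPM, with Lyz2 lower (7232 to 7661 and 4492 to 4655) and Adgre1 higher (1933 to 1977 and 2142 to 2204). The mitochondrial share was 0.744% to 0.786% in the controls and 0.821% to 0.865% in the cKO libraries. The part of these shifts in the 8 falls was not tested.

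The difference between the genotype effects was tested in 1 fit of all 16 libraries. For 9 of the 10 genes the TRAP1 effect was above the JMJD3 effect, where 18.4% of 14545 genes were called in that direction and 19.5% in the other (37.9% in all). With library totals 35.8% of the calls over all genes, in place of 48.6%, had the TRAP1 effect above. The widest differences were those of Bcl3 (1.10 on the log2 scale, SE 0.07, adjusted p = 1.4e-24), Relb (0.98, SE 0.08, adjusted p = 9.9e-21) and Nfkbia (0.92, SE 0.06, adjusted p = 6.2e-24). Tnf differed by 0.69 (SE 0.08, adjusted p = 4.6e-12), Nfkb2 by 0.78 and Tnfaip3 by 0.83. For Rel the effects differed by 0.18 (95% interval 0.03 to 0.32, adjusted p = 0.0505). Each effect is within its own line, so a difference may belong to the gene lost or to the line, and these cannot be told apart.

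The 2 wild-type sets under the same medium differed in 9 of the 10 genes, with 61.3% of all genes called either way (30% higher and 31.3% lower). Groups did not overlap for 9 of them, against 64.2% of all genes. In JMJD3 WT TCM Bcl3 (66.3 ± 1.10 CPM against 37.4 ± 2.41) and Rel (69.3 ± 4.87 against 41.2 ± 1.97) were higher than in WT TCM, at log2 fold changes of 0.82 and 0.75 (adjusted p = 1.5e-25 and 1.1e-21). Tnf (25.3 ± 0.933 against 43.3 ± 1.97 CPM) and Nfkb2 (60.5 ± 2.77 against 94.9 ± 2.45) were lower, by -0.78 and -0.65 (adjusted p = 1.7e-21 and 4.8e-27). With library totals the median over all genes shifted by -0.166, 31.7% of calls in place of 48.9% were higher, Relb turned from 0.05 to -0.11 (adjusted p = 0.412 and 0.0693), and the call on Tnfaip3 (0.20, adjusted p = 0.00262) was lost (0.03, adjusted p = 0.671).

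The balance of members within a library is given as a description, with no test. The log2 ratio of Nfkbia to Rela in CPM was -0.46 ± 0.03 in WT naive, -0.64 ± 0.06 in WT TCM and -0.14 ± 0.04 in TRAP1 KO TCM, and -1.31 ± 0.11 and -1.28 ± 0.06 in the wild type and cKO of the JMJD3 line. No TRAP1 KO TCM library (-0.20 to -0.11) reached the range of WT TCM (-0.70 to -0.58), and the JMJD3 groups overlapped. Nfkb2 over Nfkb1 moved from -0.43 ± 0.06 to 0.01 ± 0.05 when Trap1 was missing, again without overlap. Tnfaip3 over Tnf went from 0.48 ± 0.09 in WT naive to -0.45 ± 0.02 in WT TCM and stayed within -0.58 to -0.38 in TRAP1 KO TCM. Of the summed subunit level per kb, Nfkb2 made up 25.5% ± 0.262 in WT TCM and 31.1% ± 0.548 in TRAP1 KO TCM, and Rel 6.79% ± 0.198 and 4.78% ± 0.256. In the JMJD3 line Rela made up 49.7% ± 0.995 in the wild type and 49.6% ± 1.01 in the cKO.

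**Figure D4:**
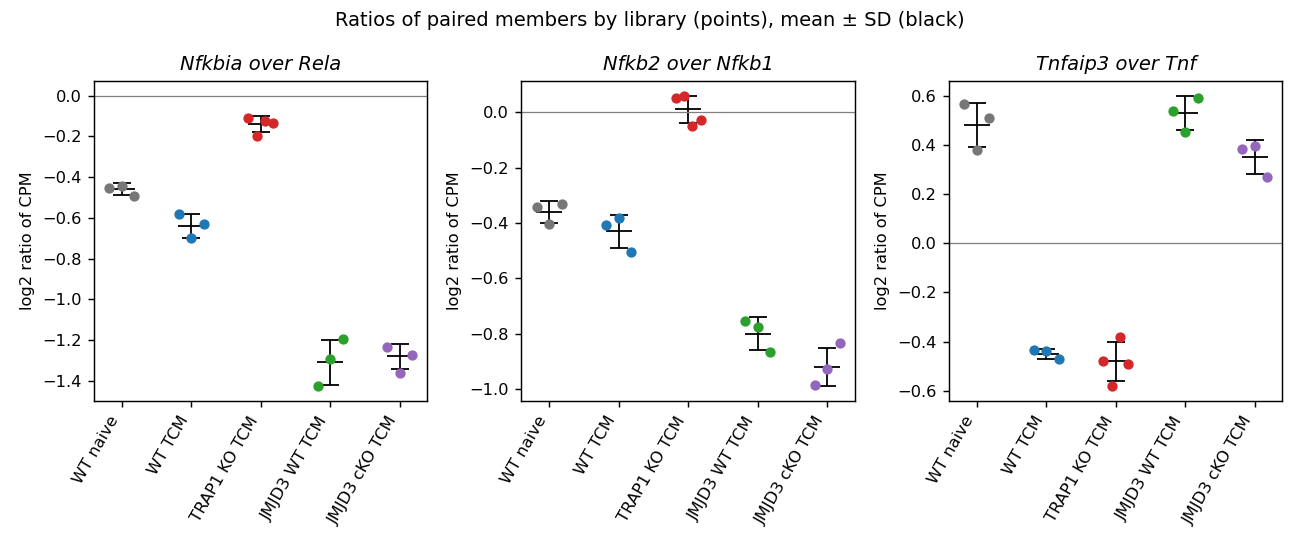
Log2 ratio of the CPM of 2 members in each library (points), with group mean ± SD in black. Nfkbia over Rela and Nfkb2 over Nfkb1 are highest in the 4 TRAP1 KO TCM libraries, and Tnfaip3 over Tnf lies below 0 in WT TCM and TRAP1 KO TCM only.

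Over the 16 libraries, which fall into 5 groups and share them as their main source of variation, log2 CPM of Nfkb2, Nfkbia and Tnf ran together (Pearson r 0.97 to 0.98, as a description). Rel ran against these 3 (r -0.79 to -0.87). Between the wild-type sets its direction was opposite to theirs (Rel 0.75, Nfkb2 -0.65, Nfkbia -0.40, Tnf -0.78), and so it was in TRAP1 KO TCM. In JMJD3 cKO TCM the estimates of Rel (-0.33), Nfkb2 (-0.15), Nfkbia (-0.22) and Tnf (-0.16) were all below 0. Bcl3 was closest to Rela (r = 0.89) and Nfkbiz to Tnfaip3 (r = 0.79). Among 9270 protein-coding genes of at least 5 CPM, the patterns most like that of Tnf were those of Adam17 (r = 0.991), Sh3bgrl3 (0.984), Traf3 (0.980), Sacm1l (0.980) and Zfp710 (0.979). Those most like Nfkb1 were Elk3 (0.971), Kank2 (0.969), Aebp2 (0.967), Ehd1 (0.967) and Tmem176b (0.965).

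Lists of other genes of the pathway were set beside the 10. For TRAP1, 21.2% of all genes tested were called higher and 21% lower, 42.2% in all. In TRAP1 KO TCM, of 14 other IkB proteins and feedback inhibitors 7 rose and 1 fell, with a median log2 fold change of 0.14 (0.01 over all genes). Nfkbie, which encodes IkB-epsilon, rose from 36.1 ± 0.427 to 55.8 ± 3.24 CPM (0.64), Tnip3, a partner of the Tnfaip3 product, from 71.6 ± 2.99 to 109 ± 3.0 (0.61), and Pdlim2 from 37.9 ± 0.667 to 54.2 ± 2.31 (0.52). Of 17 kinases 7 rose and 3 fell, among them Ikbke (0.49), Irak2 (0.47) and Irak3 (0.17) higher. The genes of the IkB kinase complex were mixed. Ikbkb, the main canonical IkB kinase, was lower (-0.16, adjusted p = 8e-06) and Ikbkg higher (0.13, adjusted p = 0.00269). Chuk did not differ detectably (-0.08, adjusted p = 0.123). Of 20 adaptors and ubiquitin ligases 7 rose and 3 fell. Traf1 rose from 27.1 ± 1.03 to 45.3 ± 1.93 CPM (0.75), Birc3, a ligase of the noncanonical branch, from 51.9 ± 2.33 to 85.2 ± 2.81 (0.72), and Traf5 fell (-0.60).

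The receptors were split in TRAP1 KO TCM, with 5 of 16 higher and 5 lower, beside 21.2% and 21% of all genes. Tlr2 rose from 77.4 ± 2.22 to 145 ± 4.73 CPM (0.91). The 2 receptors named above for the noncanonical branch went opposite ways. Cd40 fell from 25.2 ± 0.906 to 9.66 ± 0.745 CPM (-1.38, adjusted p = 4.6e-30). Ltbr, the gene of the lymphotoxin beta receptor, was at 81.6 to 89.8 CPM in WT TCM and 94.4 to 102 in TRAP1 KO TCM. Tlr9 fell (-0.69). Of 14 tested genes of TNF processing and mRNA control 7 rose and 3 fell. Adam17, the enzyme that sheds TNF, rose from 262 ± 5.97 to 319 ± 2.33 CPM (0.29, adjusted p = 9e-22), the iRhom genes Rhbdf1 (0.61) and Rhbdf2 (0.46), whose products carry that enzyme to the surface, rose, and Khsrp, whose product binds AU-rich messages, fell (-0.68). Of 30 tested target genes 13 rose and 10 fell, with a median of 0.01, the same as over all genes. The chemokine genes Cxcl2 (12.4 ± 0.528 to 43.8 ± 1.47 CPM, 1.83) and Cxcl3 (0.444 ± 0.0588 to 2.26 ± 0.431 CPM, 2.33) rose, and Ccl5 fell from 640 ± 21.7 to 160 ± 3.46 CPM (3.99-fold). Of 8 tested TNF superfamily ligands other than Tnf 2 rose and 3 fell, Tnfsf14 (0.76) upward and Tnfsf13b (-0.81) and Tnfsf10 (-0.59) downward.

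In JMJD3 cKO TCM more genes of each list were called lower than higher with TMM scaling, where 17.8% of all genes were lower and 17.3% higher. The counts were 0 higher and 7 lower of 14 IkB proteins and feedback inhibitors (median -0.12), 2 and 5 of 17 kinases, 0 and 10 of 20 adaptors and ligases (median -0.14), and 2 and 6 of 16 receptors. Library totals, under which most calls over all genes were higher, gave 0 higher and 5 lower for the inhibitors, 3 and 2 for the kinases, 1 and 7 for the adaptors and 2 and 4 for the receptors. N4bp1 (-0.34), Tnip3 (-0.31) and Nfkbib (-0.31) fell among the inhibitors. Map3k8 (-0.31) and Irak2 (-0.25) fell among the kinases, and Irak4 rose (0.17). Traf1 fell from 52.8 ± 1.21 to 25.2 ± 2.76 CPM (-1.07, adjusted p = 4.1e-18), Rnf31, the catalytic subunit of the linear ubiquitin ligase, from 182 ± 7.09 to 126 ± 0.787 (-0.52), Traf2 fell (-0.37), and Cd40 fell from 65.2 ± 1.16 to 40.1 ± 1.46 (-0.70). Tlr9 fell by the same estimate (-0.70), and Il1rap rose (0.29). Of 28 tested target genes 16 fell and 2 rose (median -0.32), and with library totals 14 fell and 3 rose (median -0.23). Cxcl10, also an interferon-induced gene, fell from 230 ± 17.0 to 56.4 ± 2.74 CPM (-2.03), Nos2 from 36.6 ± 1.5 to 11.4 ± 0.299 (-1.68) and Il1b from 7.35 ± 0.668 to 3.08 ± 0.494 (-1.26). Of 14 TNF processing genes 6 fell and 0 rose (4 and 2 with library totals), among them Zfp36, whose product destabilises Tnf messages (254 ± 8.02 to 162 ± 3.86 CPM, -0.64), Rhbdf2 (-0.36) and Frmd8 (-0.32). Adam17 did not differ detectably (-0.01, adjusted p = 0.908). Of 8 ligands 3 fell and 1 rose, with Tnfsf4 (-2.20), Tnfsf10 (-1.08) and Tnfsf8 (-0.85) lower.

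With melanoma medium alone, the lists were mixed, where 21.6% of all genes were called higher and 20.6% lower (42.2% in either direction). Of 14 IkB proteins and feedback inhibitors 2 rose and 5 fell, with Nfkbie higher (0.48) and Zc3h12a, a ribonuclease that limits inflammatory messages, and Otulin, which removes linear ubiquitin chains, lower (-0.43 and -0.28). Of 17 kinases 4 rose and 3 fell, with Ikbke (0.55), Irak3 (0.32) and Map3k3 (0.30) higher. Of 20 adaptors and ligases 7 rose and 4 fell, with Card9 (0.31), Ticam2 (0.30) and Myd88 (0.27) higher. The receptors were 4 higher and 5 lower of 16, with Cd14, the co-receptor of TLR4, from 205 ± 1.81 to 840 ± 10.5 CPM (2.03), and Tlr2 (0.50) and Tnfrsf1a (0.39) higher. Of 14 genes of TNF processing and mRNA control 6 rose and 2 fell, led by Zfp36l1 (0.59), Zfp36l2 (0.36) and Litaf (0.33). Of 30 target genes 12 rose and 8 fell (median 0.12, beside -0.01 over all genes), with Il1b (4.43) and Cxcl2 (2.42) upward, while Tnf did not differ detectably. Cxcl3 was also called higher but had only 4 counts over the WT naive libraries and 24 over the WT TCM libraries, and the 177 counts in TRAP1 KO TCM bring its mean over the fit to the level required for naming. Of the 32 listed targets Il6 and Il12b did not pass the filter in any fit, and Cxcl1 and Cxcl3 did not pass in the JMJD3 line. Of the 13 listed ligands 8 passed, and with melanoma medium Tnfsf9 (1.13) and Tnfsf14 (0.91) rose and Tnfsf12 (-0.18) and Tnfsf4 (-1.74) fell. Tnfsf4 had only 34 counts over the WT naive libraries and 8 over the WT TCM libraries.

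**Figure D5:**
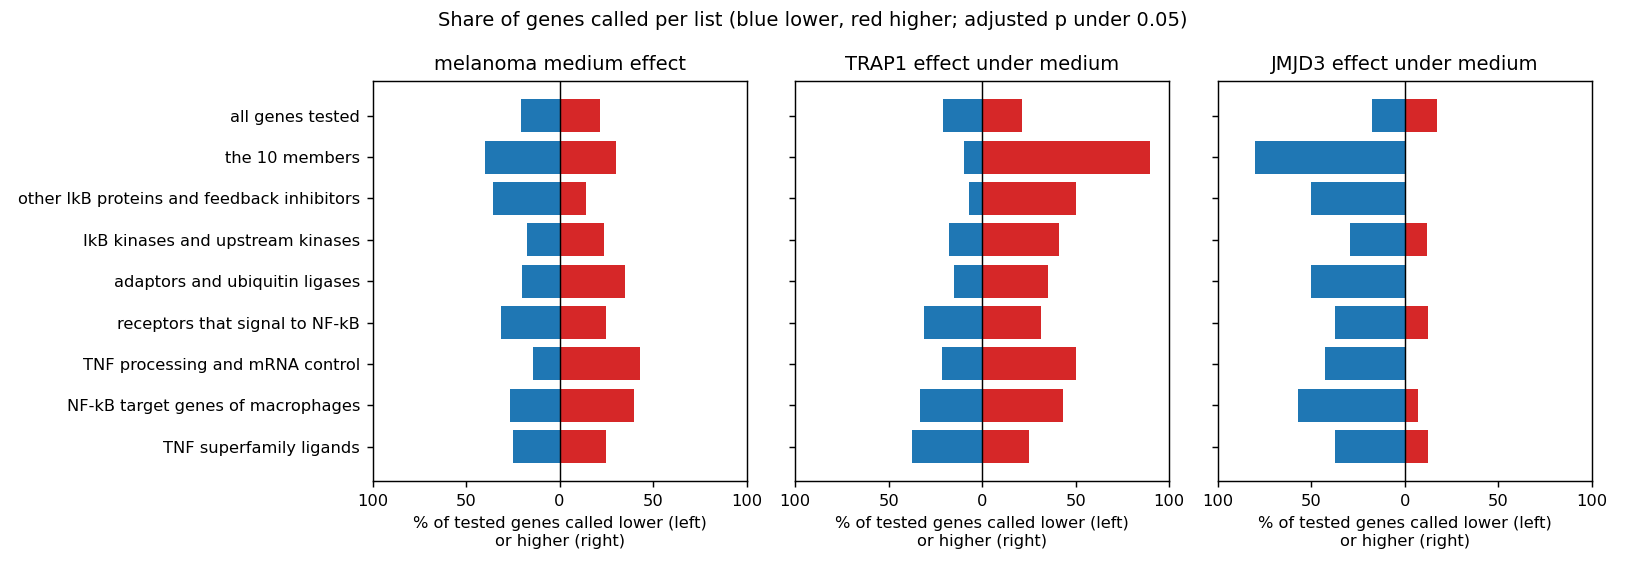
Share of tested genes called lower (blue, left) and higher (red, right) in each list, beside all genes tested and the 10 members, for 3 comparisons. For TRAP1, 9 of 10 members are on the right; for JMJD3, 8 of 10 are on the left.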

How the data were processed

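RNA was measured by sequencing after removal of ribosomal RNA and stranded library preparation, per the labels' protocols. The authors deposited 1 table of raw counts per library for 54532 gene identifiers. HISAT, RSEM, StringTie, Bowtie2 and the build mm10 appear in the submitters' processing notes, without roles. Which tool made the counts, with which annotation and strand setting, is not stated there. Symbols, positions and merged exon lengths came from GENCODE M21 (GRCm38), which matched 54495 identifiers. The rest took at most 0.0036% of a library.

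The test was edgeR's (version 4.0.16, R 4.3.3; TMM, filterByExpr with a minimum of 10 counts, robust quasi-likelihood fit, Benjamini-Hochberg over all genes tested, call at an adjusted p under 0.05). The medium and TRAP1 effects came from 1 fit of 10 libraries, the JMJD3 effect from a fit of its 6, and the wild-type sets and the difference of effects from all 16. The procedure was tested on simulated data. CPM use TMM scaling over all 16 libraries, while fold changes come from each fit. The alternatives were DESeq2 1.42.0, other scalings, no filter, other sets of libraries, a replicate block and leaving out each library.

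The members and lists were chosen with earlier results of these data known. Named were all 10 members, Trap1 and Kdm6b, Lta and Ltb, up to 3 called genes per list with the largest change whose average over the libraries of the fit reached 1 CPM, and the 5 genes most like Tnf and Nfkb1 (log2 CPM, prior count 2). Ikbkb, Ikbkg, Chuk, Ltbr, Il6, Il12b, Cxcl1 and the overlapping gene Psd were named after their values were seen. So were Adam17 as a processing gene and Tnfsf4 with melanoma medium. No 2 replicates agreed within sampling noise (chi-square per degree of freedom 1.74 to 2.72).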

Additional observations from a re-analysis of the deposited data

Results flagged for a closer look

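Of 66 genes checked in the 4 TRAP1 KO TCM libraries, the only group large enough for the check, 2 had 1 library that stood apart by Dixon's test, and chance alone flags about 1 in 20. None was among the 10 members. Tnfsf10, a death ligand of the TNF family, was at 7.72 CPM in TRAP1 KO TCM replicate 4 and at 5.41 to 5.71 in the other 3 libraries. Zfp36 was at 121 CPM in replicate 1 and at 126 to 127 in the others.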

How the results depend on the processing

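The 9 rises of members in TRAP1 KO TCM were called under each of 14 alternatives, and the 9 differences between the genotype effects under each of 17. The count of members lower in TRAP1 KO TCM was 0 to 1 with 1 library left out. Members lower in JMJD3 cKO TCM numbered 7 to 9 over 12 alternatives. With DESeq2 size factors 5 members were higher with melanoma medium in place of 3; with 1 library left out it was 2 to 4 higher and 3 to 4 lower. Library totals turned the JMJD3 value of Nfkb1 from -0.04 to 0.04 and that of Relb between the wild-type sets to -0.11, and gave 3932 genes higher and 1571 lower for JMJD3. That scaling moves the median over all genes by 0.081 for JMJD3 and by -0.166 between the wild-type sets. Of 660 single-member values under alternatives, 629 kept direction and call. Replicate numbers did not pair the libraries (correlation of deviations -0.0301 to 0.0147 over 12 pairs). A replicate block gave 2791 genes higher and 2786 lower for TRAP1 (2990 and 2954 without it) and left the member counts of all 3 comparisons the same. The members had 376 counts or more in every library, while Lta and Ltb were too shallow to test.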
